A study of Homo sapiens with 8 samples.

Results

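The transcripts of the E2F transcription factors and of the retinoblastoma (RB) pocket proteins were compared between control and KRT19-overexpressing cells labelled A549, a lung adenocarcinoma line. The members were 10 genes taken by name, E2F1, E2F2, E2F3, E2F4, E2F5, E2F7, E2F8, RB1, RBL1 and RBL2, out of 58735 genes in the deposited count table. All 10 were present once and all 10 passed the filter on low counts, which left 14621 genes for testing. Other genes of the E2F family were not analysed here. The EV group (4 libraries) carried an empty lentiviral vector and the KRT19 group (4 libraries) carried a lentivirus for KRT19, described in the study's methods as Flag-tagged. Both groups were grown in RPMI-1640 with fetal bovine serum and were, per the methods, stable lines selected with puromycin. Neither the labels nor the methods state whether a line was a clone or whether the 4 libraries of a group came from separate cultures, so p-values measure the spread between these libraries, which may be technical.

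E2F factors bind DNA at genes needed for entry into S phase. E2F1, E2F2 and E2F3 activate these genes, E2F4 and E2F5 act mainly as repressors together with pocket proteins, and E2F7 and E2F8 are atypical repressors that work without a pocket protein. RB1, RBL1 (p107) and RBL2 (p130) hold E2F factors inactive until cyclin-dependent kinases phosphorylate them. RBL1 or RBL2, E2F4 or E2F5, a DP partner and the MuvB core form the DREAM complex, which represses cell cycle genes in resting cells. Genes of this circuit are themselves targets of E2F factors, so that the factors feed back on their own transcripts.

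As sequence context for these genes, the 100 bases before the RefSeq start site are given for the 4 members whose promoter window held an E2F word. The words searched were TTTCGCGC, TTTGGCGC, TTTCCCGC and TTTGCCGC on both strands, from 250 bases before to 50 bases after the start. The promoter sequences are those of RefSeq on GRCh38.p14, they are written 5′ to 3′ on the strand of the gene, and capitals mark the words.
E2F1 (chr20:33686386-33686485, minus strand): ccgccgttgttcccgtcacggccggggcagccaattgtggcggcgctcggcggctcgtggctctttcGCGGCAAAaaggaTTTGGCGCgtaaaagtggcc
E2F2 (chr1:23531234-23531333, minus strand): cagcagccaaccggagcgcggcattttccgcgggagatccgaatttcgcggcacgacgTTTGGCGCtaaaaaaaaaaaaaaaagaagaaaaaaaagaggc
E2F3 (chr6:20401779-20401878, plus strand): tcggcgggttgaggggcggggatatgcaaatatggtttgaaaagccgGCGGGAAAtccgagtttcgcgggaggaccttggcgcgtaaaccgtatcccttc
RBL1 (chr20:37095998-37096097, minus strand): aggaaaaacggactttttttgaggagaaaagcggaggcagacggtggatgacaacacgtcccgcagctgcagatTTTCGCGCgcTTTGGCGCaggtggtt

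E2F1 and RBL1 each held 2 words and E2F2 and E2F3 each held 1. In E2F1 the words began 33 and 20 bases before the start site, in RBL1 26 and 16 bases, in E2F2 42 bases and in E2F3 53 bases. The word at 33 bases in E2F1 and the word in E2F3 lay on the opposite strand and are printed as their reverse complement. No word was found in the windows of E2F4, E2F7, RBL2 and RB1, where the only matched window of RB1 starts inside the gene, and 8 of the 10 members were matched in the promoter table (E2F5 and E2F8 were not). Such a word occurred in 3.31% of all 35116 promoters and in 6.68% of the 10339 tested genes matched by symbol. A match is a description of the letters and not evidence of binding.

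The libraries held between 14073065 and 17054364 counts. KRT19 itself had 1 to 5 counts in EV and 4353 to 5147 in KRT19 libraries, so that this transcript set all libraries in the group of their label. Of 14621 tested genes, 1 (KRT19, 0.00684%) had an adjusted p under 0.05 in edgeR's quasi-likelihood test with Benjamini-Hochberg adjustment. The unadjusted p was under 0.05 for 791 genes (5.41%). Of these 417 (2.85% of tested genes) had higher values in KRT19 libraries and 374 (2.56%) had lower values, a split that became 322 and 474 with upper-quartile scaling. GC content and gene length trends took up 17.4% of the deviation of KRT19 replicate 3 and 13.3% of that of EV replicate 3 from the mean of all libraries, against 0.180% to 5.80% in the other 6. The label was checked against markers. KRT8 and KRT18, keratins of simple epithelia, were at 189 to 347 CPM (counts per 1000000 reads, with TMM-scaled library sizes), but EPCAM and ALDH1A1 had at most 3 counts in any library, ALDH3A1 at most 4, AKR1B10 at most 14, AKR1C1 at most 22 and AKR1C2 at most 47. These aldo-keto reductases and aldehyde dehydrogenases are known to be abundant in A549. CDKN2A, which encodes p16 and lies in a region known to be deleted in A549, had 1328 to 1824 counts (a gene singled out after its values were seen). These values go against the cell line given in the labels, and the cells are called by their group here. Of the 6 retinal markers examined because the extraction text names retina, RCVRN had 0 counts in every library and the summed level of all 6 was 2.00 to 3.37 CPM in EV and 2.17 to 2.99 CPM in KRT19 libraries. The summed level of 3 leukocyte markers was at most 0.0711 CPM, that of 3 endothelial markers 1.59 to 2.33 CPM and that of 3 fibroblast markers 1.72 to 3.38 CPM.

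To ask whether KRT19 overexpression came with a change in the E2F and pocket protein transcripts, each member was tested in the fit of all genes. None of the 10 members differed between the groups at an adjusted p under 0.05, and none did at an unadjusted p under 0.05, in edgeR, in DESeq2 or in limma-voom with sample quality weights (weighted limma-voom). The log2 fold changes (KRT19 against EV) lay between -0.038 for RBL2 and 0.083 for E2F2, with standard errors of 0.056 to 0.084, and 8 of the 10 were above 0, where 52.2% of all tested genes were. The median over the members was 0.034, and that of all tested genes was 0.0051. The member median was 0.018 without EV replicate 1 and 0.052 without KRT19 replicate 1. With GC and length trends removed it was 0.0046 with 6 of the 10 above 0, beside a median of 0.0038 for all tested genes. The values of the groups overlapped for all 10 members, while 3.44% of all tested genes did not overlap. In bulk RNA a change in the share of cells in a cell cycle phase and a change in RNA per cell cannot be told apart. The separate 95% intervals of the members in this fit reached at the lowest -11.8% (RBL2) and at the highest 17.2% (E2F8). Each holds for a single member and rests on the spread between these libraries.

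**Figure D1:**
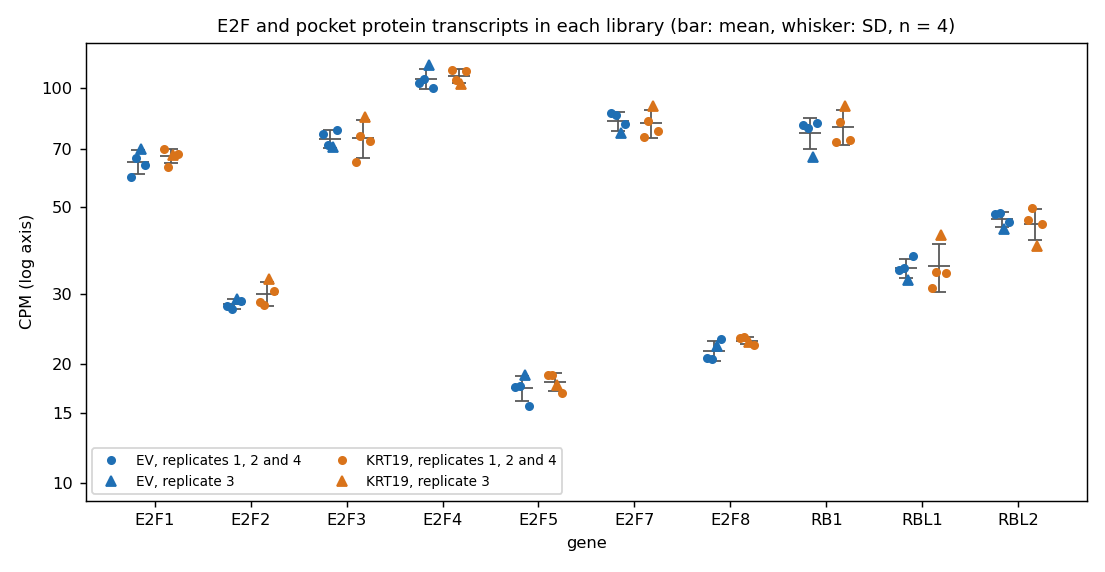
CPM of the 10 members (log axis) in each of the 4 EV and 4 KRT19 libraries, with group means as short lines and SD as whiskers (n = 4), and replicate 3 of both groups as triangles. The groups overlap for every member, and KRT19 replicate 3 is the highest of all 8 libraries for E2F2, E2F3, E2F7, RB1 and RBL1.

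The activator E2F1 (ENSG00000101412, chromosome 20, 33675683 to 33686404 on GRCh38, minus strand) is the founding member of the family and drives genes of DNA replication. E2F1 was at 59.5, 66.5, 70.1 and 63.8 CPM in EV replicates 1 to 4 and at 69.8, 63.1, 67.6 and 68.0 CPM in KRT19 replicates 1 to 4. The EV values spanned the whole KRT19 range, with the lowest and the highest of all 8 libraries both in EV. The log2 fold change was 0.048 ± 0.061 (SE), or 3.35% with a 95% interval of -5.41% to 12.9% (edgeR, adjusted p = 0.952).

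E2F2 (ENSG00000007968, chromosome 1, 23506430 to 23531220, minus strand), the second activator, had the lowest p of the family. E2F2 was at 28.0, 27.5, 29.2 and 28.9 CPM in EV and at 28.7, 28.2, 32.9 and 30.5 CPM in KRT19 libraries. A pair of KRT19 libraries, replicates 3 and 4, lay above every EV library and the other 2 lay among them. The log2 fold change of 0.083 ± 0.067 (SE, edgeR unadjusted p = 0.227 and adjusted p = 0.919) placed E2F2 at position 3602 of all tested genes by p. The exact permutation test of the library labels (two-sided) gave a p of 0.200, where 4 libraries against 4 allow no p below 0.0286.

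E2F3 (ENSG00000112242, chromosome 6, 20401906 to 20493715, plus strand), the third activator, encodes a long and a short isoform that gene counts do not separate. E2F3 was at 76.5, 71.4, 70.6 and 78.3 CPM in EV and at 64.8, 75.6, 84.5 and 73.4 CPM in KRT19 libraries. The KRT19 group held both the lowest and the highest library. The coefficient of variation was 10.9% in KRT19 and 5.06% in EV libraries, and the group means differed by 0.493% with an interval of -9.45% to 11.5% (edgeR).

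Of the factors that pair with RBL1 and RBL2 in DREAM, E2F4 (ENSG00000205250, chromosome 16, 67192169 to 67198918, plus strand) was the most counted member. E2F4 was at 102, 105, 114 and 99.9 CPM in EV and at 111, 104, 102 and 110.0 CPM in KRT19 libraries. All KRT19 values lay inside the EV range, and the log2 fold change of 0.020 ± 0.056 (SE) had the smallest error of the family. E2F5 (ENSG00000133740, chromosome 8, 85177225 to 85217158, plus strand) was the least counted, with 255 to 310 counts in a library. E2F5 was at 17.4, 17.5, 18.7 and 15.7 CPM in EV and at 18.7, 18.8, 17.6 and 16.9 CPM in KRT19 libraries. The highest KRT19 library exceeded the highest EV library by less than 0.1 CPM, and the log2 fold change was 0.054 ± 0.080 (SE). Exons of E2F5 overlap C8orf59 on the opposite strand, and since the strand setting of the counting is not given, reads of this pair cannot be told apart.

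The atypical repressors gave changes of opposite sign with all libraries, both within the replicate spread. E2F7 (ENSG00000165891, chromosome 12, 77021247 to 77065580, minus strand) was at 86.5, 85.3, 76.7 and 80.9 CPM in EV and at 75.1, 82.5, 90.0 and 77.5 CPM in KRT19 libraries. As for E2F3, the lowest and the highest library were both in the KRT19 group, and the log2 fold change was -0.018 ± 0.064 (SE). The sign for E2F7 reversed in 3 of 18 alternatives, reaching 0.019 with a library left out. E2F8 (ENSG00000129173, chromosome 11, 19224063 to 19241620, minus strand) was at 20.6, 20.5, 22.1 and 23.1 CPM in EV and at 23.2, 23.4, 22.7 and 22.3 CPM in KRT19 libraries. The KRT19 libraries were close together, with a coefficient of variation of 2.14%, and 2 of them lay above every EV library. The log2 fold change was 0.082 ± 0.069 (SE, edgeR adjusted p = 0.923), and the exact permutation p of 0.114 (two-sided) was the lowest of the 10 members.

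RB1 (ENSG00000139687, chromosome 13, 48303726 to 48599436, plus strand), the retinoblastoma tumor suppressor, was transcribed in every library, with 1095 to 1539 counts. RB1 was at 80.7, 79.0, 66.6 and 81.4 CPM in EV and at 73.0, 81.8, 90.1 and 73.7 CPM in KRT19 libraries. The lowest library was EV replicate 3 and the highest was KRT19 replicate 3, and the other 6 lay between 73.0 and 81.8 CPM with the groups mixed. The log2 fold change was 0.051 ± 0.076 (SE) over all libraries. Without EV replicate 3 it was -0.012 and without KRT19 replicate 3 it was -0.015 (edgeR), so that its sign rested on either library.

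RBL1 (ENSG00000080839, chromosome 20, 36996349 to 37095995, minus strand) encodes p107, the pocket protein of cycling cells. RBL1 was at 34.5, 34.9, 32.7 and 37.5 CPM in EV and at 31.0, 34.1, 42.3 and 33.9 CPM in KRT19 libraries. KRT19 replicate 3 stood above the other 7 libraries and the remaining KRT19 libraries lay at or below the EV mean of 34.9 CPM. The log2 fold change of 0.020 ± 0.084 (SE) became -0.082 without KRT19 replicate 3. RBL2 (ENSG00000103479, chromosome 16, 53433977 to 53491649, plus strand) encodes p130, the pocket protein that accumulates in resting cells. RBL2 was at 47.9, 48.2, 44.0 and 45.7 CPM in EV and at 46.4, 49.6, 39.8 and 45.3 CPM in KRT19 libraries. KRT19 replicate 3 was here the lowest of all libraries, and the log2 fold change of -0.038 ± 0.068 (SE) became 0.019 without it. Exons of RBL2 overlap AKTIP on the opposite strand, so its counts carry the same uncertainty as those of E2F5.

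**Figure D2:**
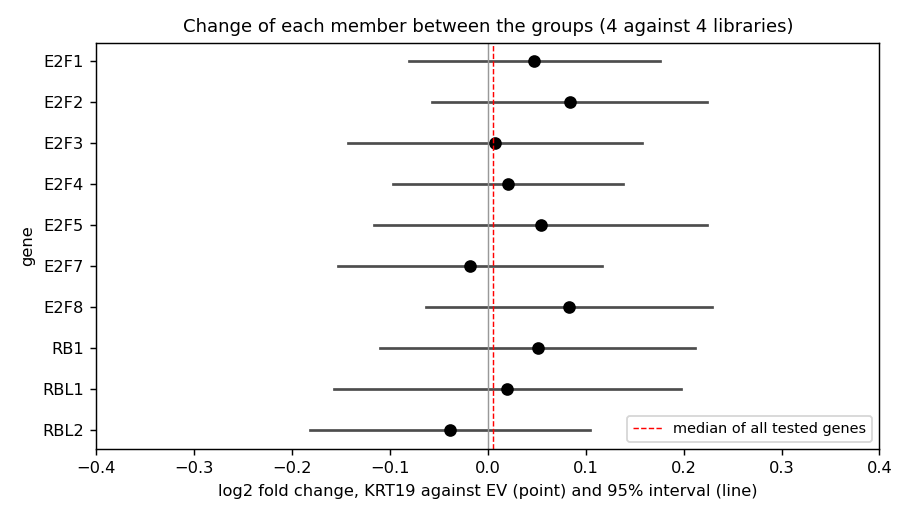
Log2 fold change of each member (KRT19 against EV, points) with its 95% interval (lines) from edgeR, 4 against 4 libraries; the dashed line is the median of all tested genes at 0.0051. Every interval contains 0, and the points lie between -0.038 and 0.083.

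The members did not deviate together in KRT19 replicate 3. Relative to the mean of the other 3 KRT19 libraries, this library was higher by 0.36 on the log2 scale for RBL1, 0.25 for E2F3, 0.24 for RB1, 0.20 for E2F7 and 0.17 for E2F2. The values of E2F1 (0.014), E2F8 (-0.015) and E2F5 (-0.038) were near 0, and E2F4 (-0.087) and RBL2 (-0.24) were lower. The 5th and 95th percentiles of this difference over all tested genes were -0.34 and 0.48. The GC content of the longest transcript was 37.3% for RB1, 40.0% for RBL1, 43.1% for E2F7, 45.2% for E2F3 and 57.5% for E2F2, which were higher in this library. It was 62.5% for E2F1, 59.3% for E2F4, 45.9% for E2F8, 43.2% for RBL2 and 38.3% for E2F5, which were near or below 0. Whether the differences of the members follow GC content or length was not tested. EV replicate 3 gave its lowest value for RB1, -0.27 against the mean of the other 3 EV libraries, and its highest for E2F4 (0.16), E2F5 (0.15) and E2F1 (0.15). With the GC and length trends removed, RB1 changed from 0.051 to -0.0048 and RBL1 from 0.020 to -0.023, while E2F2 was 0.10 and E2F8 was 0.087. Both E2F2 and E2F8 still had an unadjusted p above 0.05 in that fit.

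**Figure D3:**
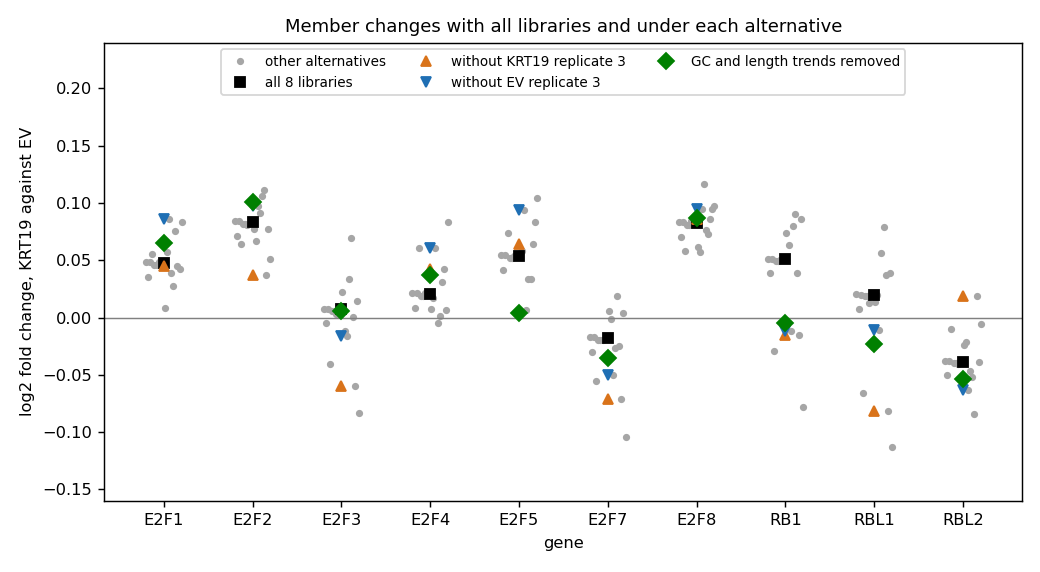
Log2 fold change of each member with all 8 libraries (squares), without KRT19 or EV replicate 3 (triangles), with GC and length trends removed (diamonds) and under the remaining alternatives (grey). E2F1, E2F2, E2F5 and E2F8 stay above 0 under every alternative, and E2F3, E2F4, E2F7, RB1, RBL1 and RBL2 lie on both sides of 0.

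The levels of the members were then compared with each other within libraries, per kilobase of merged exons. E2F4 had the highest level, with 29.4 ± 1.73 CPM per kilobase (SD, n = 4) with the empty vector and 29.8 ± 1.21 (SD, n = 4) with KRT19. E2F1 followed at 26.0 ± 1.78 and 26.8 ± 1.13 (SD, n = 4 each). E2F3, E2F7 and RB1 formed a middle tier with EV means of 14.4, 13.1 and 11.9 CPM per kilobase and KRT19 means of 14.4, 12.9 and 12.3. RBL2 (6.26), RBL1 (5.90), E2F8 (5.38) and E2F2 (5.36) lay together below them in the mean over the 8 libraries, and E2F5 was the lowest at 2.98. This order was the same in the EV and KRT19 means.

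Of the 9 pairs of neighbours in this order, 6 differed in the same direction in all 8 libraries (exact sign-flip permutation test over libraries, two-sided, p = 0.00781, the smallest it can give, and 0.0117 adjusted over the 9 pairs). The order came from the same 8 libraries, so the test describes only how steady each step was over them. The log2 difference was 0.88 ± 0.17 between E2F1 and E2F3, 0.95 ± 0.18 between RB1 and RBL2 and 0.85 ± 0.13 between E2F2 and E2F5 (SD over the 8 libraries). The steps from E2F4 to E2F1 (0.17 ± 0.057), E2F3 to E2F7 (0.15 ± 0.071) and E2F7 to RB1 (0.100 ± 0.071) were small (SD over the 8 libraries). The pairs RBL2 and RBL1 (adjusted exact permutation p = 0.290), RBL1 and E2F8 (0.0703) and E2F8 and E2F2 (0.859) did not differ beyond their spread. With the longest transcript in place of the merged exons, 5 of the 10 members changed rank and RB1 moved from position 5 to position 3.

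Expressed as shares of the summed level of the 7 E2F genes, E2F4 took 30.6% ± 1.07 with the empty vector and 30.4% ± 1.55 with KRT19, and E2F1 27.0% ± 1.23 and 27.3% ± 1.04 (SD, n = 4 each). The 3 activators together took 47.3% ± 0.780 and 47.7% ± 1.03, and the atypical E2F7 and E2F8 19.0% ± 1.00 and 18.8% ± 0.910 (SD, n = 4 each). Within the pocket proteins, RB1 took 49.4% ± 1.40 (SD, n = 4) with the empty vector and 50.4% ± 1.62 (SD, n = 4) with KRT19. Each of these 5 shares differed between the group means by less than the SD over the libraries of either group. E2F2 took 5.41% ± 0.145 with the empty vector and 5.61% ± 0.285 with KRT19, a difference above the EV SD. E2F8 took 5.43% ± 0.317 and 5.64% ± 0.207, a difference above the KRT19 SD (SD, n = 4 each).

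**Figure D4:**
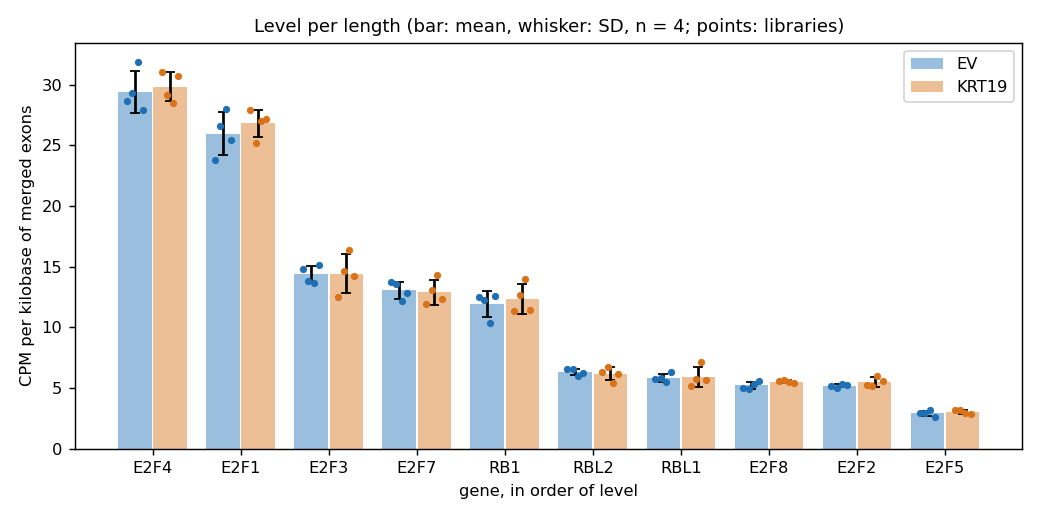
Level of each member in CPM per kilobase of merged exons, in order of the mean over all libraries, with EV and KRT19 group means as bars, SD as whiskers (n = 4) and libraries as points. E2F4 and E2F1 lead at 29.4 and 26.0 in EV, and the EV and KRT19 whiskers overlap for each gene.

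The genes whose profile over the 8 libraries was most like that of a member were found by the root-mean-square distance between centred profiles scaled to an SD of 1, among 9501 other genes with a mean of at least 10 CPM. For RB1 these were PHACTR2 (distance 0.129) and EVI5 (0.204), for E2F1 ERMARD (0.191) and DHDDS (0.257), and for E2F8 FBLN1 (0.155) and GPSM1 (0.285). The median distance of all candidates was 1.45, 1.43 and 1.40, respectively. With so many candidates and 8 points, these distances describe the present libraries only.

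The rest of the circuit was described with 9 gene lists, from partners to targets. Of 112 listed genes 110 were tested, and none passed the adjusted threshold in edgeR, where the lowest adjusted p was 0.868 (1 mitotic gene passed with the looser filter). At an unadjusted p under 0.05, 10 were higher and 2 were lower in KRT19 libraries, or 10.9% of the tested genes of the lists beside 5.41% of all tested genes. The lists were chosen with earlier results of these data known, so this share is not independent support for a change. The count of 10 varied between 5 and 27 over the alternatives, and it was 17 without KRT19 replicate 3 and 20 without KRT19 replicate 1. The DP proteins, with which E2F1 to E2F5 bind DNA, gave a log2 fold change of 0.050 ± 0.049 (SE) for TFDP1 and -0.018 ± 0.067 (SE) for TFDP2. The mean level of TFDP1 was 140.0 ± 5.58 CPM with the empty vector and 145 ± 3.43 CPM with KRT19 (SD, n = 4 each).

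Of the 8 genes of the MuvB core and its MYB and FOXM1 partners, 7 had a log2 fold change above 0 (52.2% of all tested genes) and 1, LIN9, was higher at an unadjusted p under 0.05 (2.85% of all tested genes). LIN9, a MuvB subunit, was at 14.0, 13.7, 12.4 and 13.8 CPM in EV and at 14.2, 14.9, 16.04 and 15.9 CPM in KRT19 libraries, so that the groups did not overlap. No gene of this list was higher at that p without EV replicate 2, 3 or 4 or KRT19 replicate 4 (0 in each of the 4 fits). None was with upper-quartile scaling, by DESeq2, with the replicate block or with the block and GC and length trends removed. The count was 2 without KRT19 replicate 1 or 3, 2 with GC and length trends removed without the block, and 3 by weighted limma-voom. The LIN9 log2 fold change was 0.18 ± 0.084 (SE), with an unadjusted p of 0.0452 and an adjusted p of 0.906 in edgeR. MYBL1 gave 0.14 ± 0.083 and RBBP4, a histone-binding subunit, 0.084 ± 0.050 (SE). MYBL1 was at 114 CPM in KRT19 replicate 3 and at 77.9 to 94.6 CPM in the other 7 libraries.

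Of 9 tested genes for kinases, cyclins and the phosphatase acting upstream of the pocket proteins, CCNE2 was the 1 gene higher at an unadjusted p under 0.05 (2.85% of all tested genes), with a log2 fold change of 0.29 ± 0.13 (SE). CCNE2, which encodes cyclin E2, was at 15.5 CPM in KRT19 replicate 3, at 7.61 CPM in EV replicate 3 and at 10.4 to 11.4 CPM in the other 6 libraries, where the groups overlapped. No gene of this list was higher at that p without EV replicate 3, EV replicate 4 or KRT19 replicate 3 (0 in each of the 3 fits). None was with upper-quartile scaling, the stricter filter, the replicate block or the block and GC and length trends removed. The count was 2 with GC and length trends removed without the block. CCNA2 (0.081 ± 0.048) and CDC25A (0.082 ± 0.056) did not pass (SE, edgeR unadjusted p of 0.110 and 0.162). CCND2 had 0 counts in all libraries, which leaves CCND1 and CCND3 as the counted D-type cyclins. Of the 7 CDK inhibitors, 1 had a log2 fold change above 0 (52.2% of all tested genes) and 6 had one below 0. Lower at an unadjusted p under 0.05 were 2 of the 7 (2.56% of all tested genes in this direction), namely CDKN1A (-0.17 ± 0.053) and CDKN1B (-0.15 ± 0.062, SE each), with edgeR adjusted p of 0.868 and 0.906. CDKN1A, which encodes p21, was at 214, 198, 221 and 213 CPM in EV and at 195, 194, 173 and 188 CPM in KRT19 libraries, with all 4 KRT19 libraries below every EV library. CDKN1B, which encodes p27, was at 51.2, 49.8, 49.0 and 46.3 CPM in EV and at 40.4, 45.3, 46.8 and 44.8 CPM in KRT19 libraries, where 1 KRT19 library lay inside the EV range. Without EV replicate 2 the count of 2 lower genes became 1. CDKN1A was picked for follow-up by the study on the same libraries, so its value here is not independent evidence of a direction. By RT-PCR the study also reported CDKN1A mRNA as lower in KRT19-overexpressing A549 cells and higher in PC-9 cells after KRT19 knockdown. CDKN2D gave -0.14 ± 0.068 (SE).

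Among 11 corepressors that bind pocket proteins, ARID4A (0.32 ± 0.13) and the DNA methyltransferase DNMT1 (0.12 ± 0.047) were higher at an unadjusted p under 0.05 (SE, edgeR; 2.85% of all tested genes). ARID4A was at 24.7 CPM in KRT19 replicate 3 against 14.1 to 18.8 CPM in the other libraries. The count of 2 in this list became 1 without EV replicate 1, 2 or 4 or KRT19 replicate 2, 3 or 4, and with the replicate block. DNMT1 was at 359, 352, 383 and 369 CPM in EV and at 393, 414, 378 and 401 CPM in KRT19 libraries, with KRT19 replicate 3 alone inside the EV range. SMARCA4, a remodelling ATPase, gave -0.082 ± 0.074 (SE). None of the 7 regulators of E2F protein turnover or modification reached an unadjusted p under 0.05 in edgeR, the closest being CCNF (0.075 ± 0.057), SKP2 (0.11 ± 0.082) and TRIM28 (0.068 ± 0.056, SE each). The count of 0 became 1 without EV replicate 1, with GC and length trends removed or by weighted limma-voom, and 2 without KRT19 replicate 3.

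All 37 tested genes of the list of E2F targets at the G1/S transition had a log2 fold change above 0, between 0.0048 and 0.21, with a median of 0.085, where 52.2% of all tested genes were above 0 with a median of 0.0051. At an unadjusted p under 0.05, 4 of the 37 (2.85% of all tested genes in this direction) were higher, and 5 of the 37 did not overlap between the groups (3.44% of all tested genes). The count of 4 became 2 without EV replicate 4, KRT19 replicate 2 or KRT19 replicate 4, 8 without KRT19 replicate 1, 9 without KRT19 replicate 3 and 10 without replicate 3 of both groups, and it was 16 by weighted limma-voom. It was 2 with upper-quartile scaling or the replicate block, 12 with GC and length trends removed and 10 with this and the block. Genes higher at that p over all tested genes moved too. They were 417 of 14621 with all libraries, 722 of 14823 without KRT19 replicate 1 and 368 of 14782 without KRT19 replicate 3. Without replicate 3 of both groups they were 583 of 14606. Of 14621 genes, 656 were higher by weighted limma-voom, 655 with GC and length trends removed and 523 with this and the block. Upper-quartile scaling gave 322 and the block alone 228. UHRF1, a chromatin factor needed to maintain DNA methylation, was at 205, 212, 214 and 195 CPM in EV and at 232, 226, 239 and 223 CPM in KRT19 libraries. All 4 KRT19 libraries were above every EV library, and the log2 fold change was 0.16 ± 0.048 (SE, edgeR unadjusted p = 0.00459, adjusted p = 0.868). BRCA1 (0.21 ± 0.073) and the replicative helicase subunit MCM4 (0.095 ± 0.043) were the next by p (SE). BRCA1 was at 53.1 CPM in KRT19 replicate 3 and at 43.6, 45.8 and 41.3 CPM in KRT19 replicates 1, 2 and 4, the last of them inside the EV range of 38.1 to 41.6 CPM. The number of genes above 0 in this list was 35 with upper-quartile scaling, 33 without KRT19 replicate 3 and 32 without replicate 3 of both groups, with medians between 0.073 and 0.090 over all alternatives. A like shift of S phase genes was already known from these libraries when the list was written, so the count is not independent support for it.

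Of 20 mitotic genes controlled by DREAM, MYBL2 and FOXM1, 16 had a log2 fold change above 0 (52.2% of all tested genes), with a median of 0.058. At an unadjusted p under 0.05, 2 of the 20, NEK2 and CENPE, were higher (2.85% of all tested genes). NEK2, a centrosomal kinase, was at 50.8, 53.4, 47.6 and 52.2 CPM in EV and at 60.1, 56.0, 62.1 and 55.8 CPM in KRT19 libraries. The groups did not overlap, and the log2 fold change was 0.20 ± 0.060 (SE, edgeR unadjusted p = 0.00403, adjusted p = 0.868). CENPE (0.27 ± 0.11) was at 88.8 CPM in KRT19 replicate 3 and at 50.4 to 65.0 CPM in the other 7 libraries, and TOP2A gave 0.13 ± 0.065 (SE). TOP2A was at 544 CPM in KRT19 replicate 3 and at 434, 445 and 456 CPM in KRT19 replicates 1, 2 and 4, beside an EV mean of 428 CPM. The count of 2 became 1 without EV replicate 2 or 3 and 7 without KRT19 replicate 1. It was 1 by DESeq2, 6 with the looser filter and 4 with GC and length trends removed. Over all tested genes, those higher at that p numbered 722 of 14823 without KRT19 replicate 1 and 889 of 30250 with the looser filter. They numbered 321 by DESeq2 and 655 with GC and length trends removed, of 14621 each. Of the 9 apoptosis genes with described E2F1 control, 7 were above 0 (52.2% of all tested genes) and none reached an unadjusted p under 0.05 in edgeR, a count that became 1 without KRT19 replicate 3 and by weighted limma-voom. TP73 gave 0.14 ± 0.095 and APAF1 0.075 ± 0.059 (SE).

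**Figure D5:**
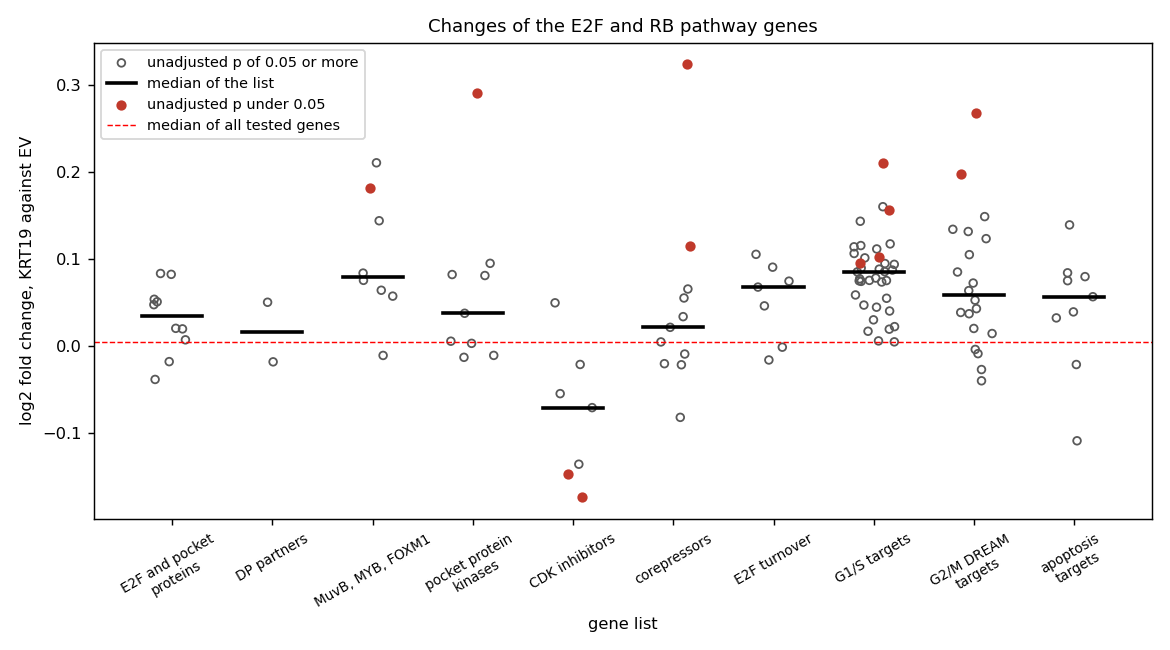
Log2 fold change (KRT19 against EV) of every tested gene of the E2F and pocket protein family and of the 9 pathway lists, with list medians as black bars and the median of all tested genes as a dashed line. Filled points had an unadjusted p under 0.05 in edgeR. All 37 G1/S targets lie above 0 with a median of 0.085, and 6 of the 7 CDK inhibitors lie below 0.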

How the data were processed

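The deposited data were 1 table of unnormalised gene-level read counts that the authors made for the 8 libraries. The submitters' processing notes name Bowtie 0.12.2, featureCounts 1.5.0-p3, DESeq2 and hg38; strand and multi-mapping settings are not given in the sources used here. Groups and replicate numbers came from the titles. The deposited gene lengths equal the merged exon lengths of GENCODE 29 for all 58735 genes.

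Counts were fitted with edgeR 4.0.16 in R 4.3.3 (filterByExpr, TMM, glmQLFit and glmQLFTest on the group over all 8 libraries), with two-sided p-values adjusted over 14621 genes. Standard errors are the log2 fold change over the square root of F. Single members were also tested by exact permutation. The procedure was tested on simulated data with 200 changed genes. At an adjusted p under 0.05 it recovered 20% of those changed by 0.25 on the log2 scale. It recovered 70% at a change of 0.5 and 92.5% at a change of 1.

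Named genes were KRT19, the members, the 3 lowest p-values in each list with a mean of at least 1 CPM, and 2 genes of like profile for each of E2F1, E2F8 and RB1. CDKN2A was added, and some listed genes are not reported here. Members and lists were chosen with earlier results of these data known. The alternatives were DESeq2 1.42.0 and its size factors, upper-quartile scaling, weighted limma-voom (limma 3.58.1), which changes the test and adds sample quality weights at once, a looser filter (at least 1 count in total) and a stricter one (at least 5 CPM in 4 libraries), the replicate block, removal of GC and length trends (splines with 5 degrees of freedom), each library left out, and, chosen after seeing the data, both replicates 3 left out.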

Additional observations from a re-analysis of the deposited data

Results flagged for a closer look

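In 20 groups of 4 libraries (10 members in both conditions), 1 library stood apart from the other 3 by Dixon's 95% critical value, where chance gives about 1. EV replicate 3 had 6.06 log2 CPM of RB1, while the remaining EV libraries had 6.31 to 6.35, a gap of 0.849 of the range. GC content and gene length trends took up 13.3% of the deviation of this library across genes. With these trends removed the RB1 log2 fold change (KRT19 against EV) was -0.0048 in place of 0.051.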

How the results depend on the processing

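Weighted limma-voom stands for limma-voom with sample quality weights. No member passed the adjusted threshold or an unadjusted p of 0.05 under any of 18 alternatives, where the lowest unadjusted p was 0.0714 (E2F7). E2F1, E2F2, E2F5 and E2F8 were above 0 under all 18, but their sizes moved. E2F1 was 0.0083 without EV replicate 1 and 0.086 without EV replicate 3, E2F2 0.037 without KRT19 replicate 3, E2F5 0.0068 without EV replicate 4 and 0.0037 with GC and length removal, and E2F8 0.057 to 0.12 with 1 library left out. Directions near 0 reversed for E2F3 with upper-quartile scaling (-0.0052) and weighted limma-voom (-0.041), for RB1 with weighted limma-voom (-0.029), GC and length removal (-0.0048) and this with the replicate block (-0.0034), and for RBL1 with the same 3 (-0.066, -0.023 and -0.026). Leaving out 1 library gave -0.060 to 0.070 for E2F3, -0.0046 to 0.061 for E2F4, -0.071 to 0.019 for E2F7, -0.015 to 0.091 for RB1, -0.082 to 0.079 for RBL1 and -0.084 to 0.019 for RBL2. Without replicate 3 of both groups E2F3 was -0.083, RB1 -0.078 and RBL1 -0.11. The cause was not tested.

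Of the 10 members, 8 were above 0, 5 with weighted limma-voom and 5 to 9 with libraries left out (5 without EV replicate 3). Genes past the adjusted threshold numbered 1, and 5 by DESeq2, 71 under the looser filter, 8 by weighted limma-voom, 5 with GC and length removal, 8 with this and the block, and 1 to 8 with libraries left out. Genes at an unadjusted p under 0.05 numbered 791, and 1337 with weighted limma-voom, 1559 with the looser filter (30250 genes tested), 451 with the block, 1196 with GC and length removal 620 to 1228 with 1 library left out and 1193 without replicate 3 of both groups. Pathway genes higher at that p numbered 10, and 6 with upper-quartile scaling, 27 with weighted limma-voom, 5 with the block, 23 with GC and length removal and 6 to 20 with libraries left out. Those lower numbered 2, and 3 with upper-quartile scaling, weighted limma-voom and GC and length removal with or without the block, 1 with the block alone and 1 to 2 with libraries left out. For members at another rank of level per kilobase, the longest transcript gave 5 and libraries left out 0 to 2. Deviations of same-numbered EV and KRT19 libraries from their group means gave r across genes of -0.16 to 0.057. Only for replicate 4 did the same number give a higher r (0.057) than the best other number (-0.0047). The labels state no pairing, and these values do not settle whether there was one.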

Other observations

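The E2F words shown for the members were also counted over the pathway. They occurred in the promoter windows of 19 of 33 matched G1/S target genes (57.6%), 2 of 16 matched mitotic genes (12.5%), 0 of 6 matched CDK inhibitors and 6.68% of 10339 matched tested genes. The CHR word TTTGAA, bound by the MuvB core, showed the converse, with 11 of 16 mitotic genes (68.8%), 2 of 33 G1/S targets (6.06%) and 13.3% of the matched tested genes. Across the transcriptome, the 691 tested genes with an E2F word had a median log2 fold change of 0.022 and 60.2% were above 0. The 9648 genes without one had a median of 0.0043 with 52.1% above 0. At an unadjusted p under 0.05 (edgeR), 37 of the 691 were higher and 8 were lower, beside 253 and 239 of the 9648. Genes with the CHR word had a median of 0.018 over 1377 genes, against 0.0041 over 8962 genes without it. These are descriptions with no test, the 19 G1/S targets are among the genes with the E2F word, and GC content was not matched.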
